A study of Mus musculus with 2 samples.

Results

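The Hox genes encode homeodomain transcription factors that give cells their position along the body axis, and 38 of them were read here in prostaspheres with and without Sox9. A gene was taken as a member when a non-control spot on both arrays carried the name Hoxa, Hoxb, Hoxc or Hoxd followed by a number only. This gave 38 genes and 50 probes, of 27811 genes named on the array. Mouse has 39 such genes in the RefSeq table used here, and Hoxc11 had no probe under its name. Where a gene had more than 1 probe, the probe with the highest mean brightness over both arrays stood for it. The other probe is described for some of these genes only.

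Prostaspheres are clusters of epithelial cells grown in Matrigel. Per the labels, the cells came from urogenital sinus (UGS) epithelium of C57/Bl6J background embryos harvested 16 days post conception, and the spheres grew for 6 days with dihydrotestosterone and then for 6 days with 5 µM tamoxifen (TAM) or vehicle. The study's methods differ, since they refer the profiled cells to a prostasphere assay that starts from adult prostate, and its legends also describe adult mice. Which source holds for these RNAs was not settled here. On the genotype comparison, Cy5 carried TAM-treated RNA that is Sox9 wild type and Cy3 carried TAM-treated ER-Sox9flox/flox RNA. On the treatment comparison, Cy5 carried vehicle-treated ER-Sox9flox/flox RNA and Cy3 carried TAM-treated ER-Sox9flox/flox RNA, the latter with a sample number of its own. The ERCre allele is a Cre recombinase that TAM activates, and in the mice listed by the study it is driven from Rosa26, which is not restricted to epithelium. All 4 RNAs had been exposed to the androgen, and all but the vehicle-treated RNA to TAM. Whether the wild-type spheres also carried ERCre is not given in the sources used here. Both channels of the treatment comparison carry the genotype label Sox9 null, and they were told apart by title and treatment. The source names call the Cy5 RNAs SOX9 and the Cy3 RNAs Ctrl, which read alone would turn the sign of every ratio. Each comparison had 1 array, both lay on 1 slide, and no array had the dyes exchanged, so a dye effect on a probe and the difference between RNAs cannot be told apart.

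Values are log2 ratios of Cy5 over Cy3, so a positive value means a higher level in the RNA labelled as Sox9-expressing on either array. Intensities given for single RNAs are normalised linear intensities of 1 probe, and they were compared between RNAs but not between probes. Of 3 Sox9 probes, 1 gave log2 ratios of 2.69 on the genotype comparison and 2.37 on the treatment comparison. Another gave 1.17 and 1.27, and the third went the other way, with -0.997 and -1.22. Over all 15115 genes tested, 2 passed an adjusted p of 0.05 in limma with Benjamini-Hochberg adjustment.

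Mammalian Hox genes lie in 4 clusters, HoxA to HoxD, that arose by duplication, so that genes with the same number in different clusters are paralogues. Their order on the chromosome follows their order of expression along the body. Low numbers act toward the head and paralogue group 13 acts at the caudal end, where the UGS forms. Hoxa13, Hoxb13 and Hoxd13 are known for their part in development of the prostate and its lobes. On this array the probes of HoxA lay on chr6, those of HoxB spanned chr11:96057368-96228510, those of HoxC chr15:102758794-102866583 and those of HoxD chr2:74508005-74603059 (mm9, the build of the probe annotation).

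The 4 clusters differed in how many of their genes were detected. The brightest probe was well above background in all 4 RNAs for 23 of 38 genes, or 60.5%, against 50.5% of all genes on the array. It was below that mark in every RNA for 10 genes, or 26.3%, against 41.3% of all genes, and 5 genes were detected in some RNAs only, against 8.16% of all genes. HoxB was the most complete cluster, with 9 of its 10 genes detected in all 4 RNAs, namely Hoxb2 to Hoxb9 and Hoxb13. Only Hoxb1, a gene of the early hindbrain, was missing from it in these RNAs. HoxA had 8 of 11 genes in all RNAs, and its undetected members were Hoxa2 and Hoxa4. HoxD had 5 of 9 (Hoxd4, Hoxd8, Hoxd9, Hoxd10 and Hoxd13), while Hoxd1 and Hoxd3 were not well above background in any RNA. In HoxC, 1 of 8 genes, Hoxc4, was detected in every RNA. Hoxc5, Hoxc8, Hoxc10, Hoxc12 and Hoxc13 were not detected in any of them. No test was made between clusters, because a gene not well above background may have a weak probe, and each gene had only 1 or 2. With a more lenient mark of the scanner software, signal positive and significant, 28 of 38 genes were detected in all RNAs, 3 of them in HoxC and 7 in HoxD, where 60.8% of all genes on the array were. Under it only 2 Hox genes, Hoxa2 and Hoxb1, were detected in no RNA, against 15.8% of all genes. The other 8 were detected in some RNAs, against 23.4% of all genes, and 5 of these were in HoxC.

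**Figure D1:**
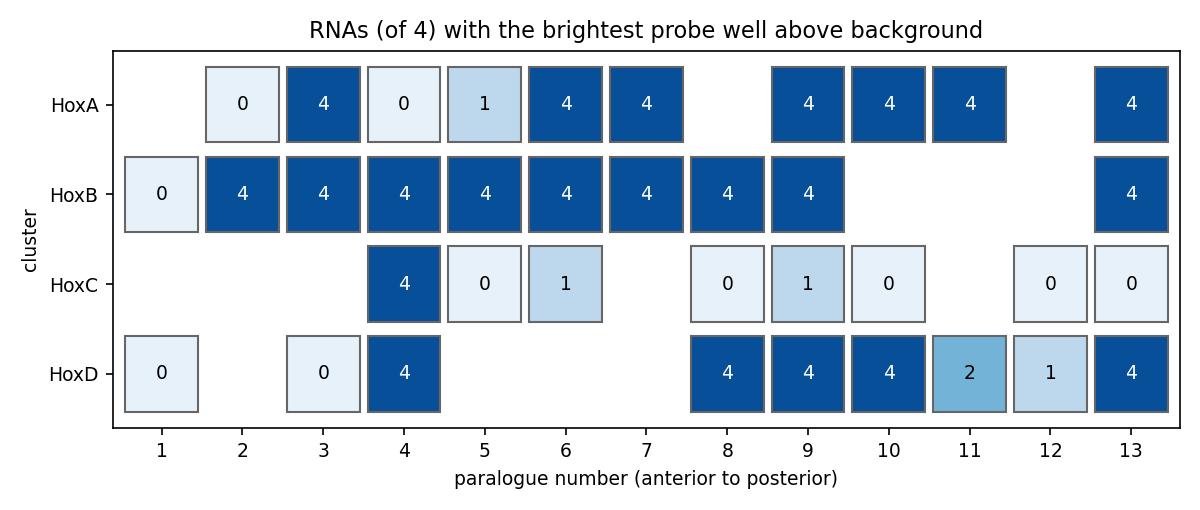
The grid shows the Hox genes on the array by cluster, 1 of them left out, (rows) and paralogue number (columns), and the number in each cell is how many of the 4 RNAs had its brightest probe well above background. HoxB is filled at 4 from Hoxb2 to Hoxb9 and at Hoxb13, whereas HoxC has 1 gene at 4.

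Detected genes were found among low, middle and high paralogue numbers. Of the genes of groups 1 to 4, 7 of 12 were detected in all RNAs, of groups 5 to 8, 7 of 11, and of groups 9 to 13, 9 of 15. Per RNA, 23 Hox genes were detected in wild type, 24 in each TAM-treated floxed RNA and 27 in the vehicle-treated floxed RNA. Over all genes on the array the shares were 52.5% in wild type, 54.4% in its floxed partner, 55.1% with vehicle and 55.7% in the TAM-treated partner of that RNA, beside 60.5%, 63.2%, 71.1% and 63.2% of the Hox genes.

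The 23 genes detected throughout were also the Hox genes that entered the test, and their differences were small. None reached 2-fold on either array, where 1.67% of all tested genes did so on the genotype comparison and 2.1% on the treatment comparison. On both arrays in the same direction, 0.529% of all tested genes were at least 2-fold. Of the 23, 11 were higher with Sox9 on both arrays, 6 were lower on both and 6 went opposite ways. The shares over all tested genes were 33.8%, 33.7% and 32.4%. Hoxa13 is among the 11 with a genotype value of 0.00019, and Hoxb6 among the 6 with -0.00087, so both counts rest partly on values at 0. The median log2 ratio of the 23 genes was 0.02 on the genotype comparison and 0.05 on the treatment comparison, beside -0.01 and 0.01 over all tested genes. The median size, without sign, was 0.11 and 0.23, beside 0.12 and 0.16. No Hox gene passed the limma adjusted p of 0.05, a level that 0.0132% of all tested genes passed. At an unadjusted limma p under 0.05 there were 5 of 23 Hox genes, where 19.5% of all tested genes were. All 5 were higher with Sox9, and over all tested genes 10.4% were higher and 9.06% lower at that level. The limma p-values combine a probe's spread between 2 arrays that ask different questions with a spread estimated over all tested probes. Neither is known to be a spread between cultures, since nothing in the labels says that the cultures were separate.

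**Figure D2:**
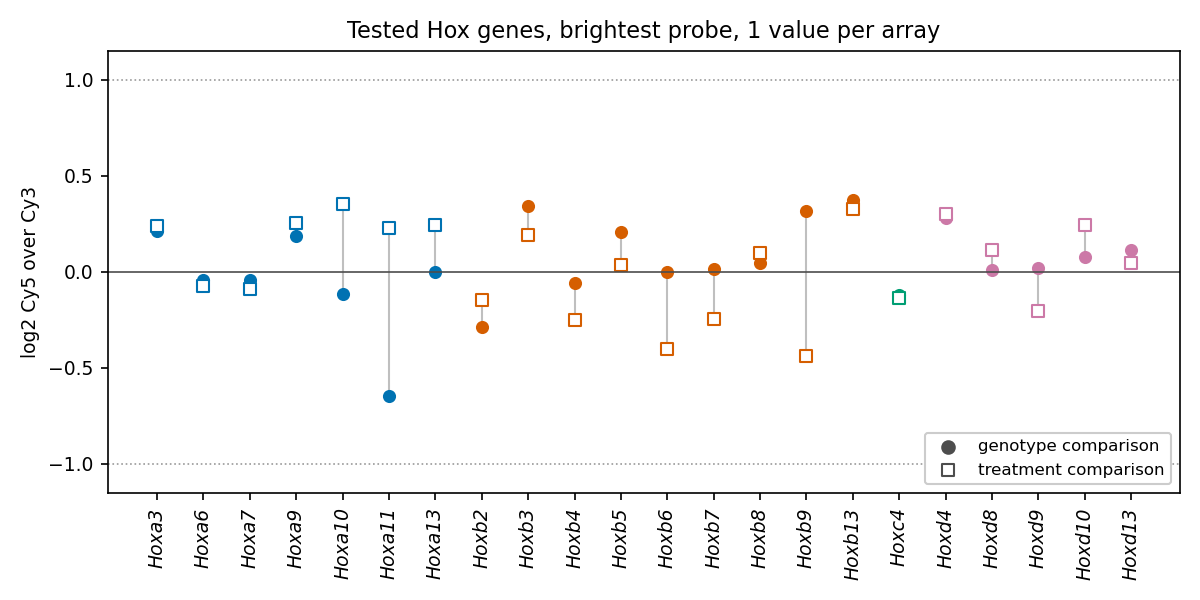
Log2 ratio of Cy5 over Cy3 (y axis) for 22 of the 23 tested Hox genes in order of cluster and number (x axis), filled circles for the genotype comparison and open squares for the treatment comparison, with a line joining the 2 values of a gene and dotted lines at 2-fold. All points lie within the dotted lines, and the longest joins belong to Hoxa11 and Hoxb9.

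Paralogue group 13 is the group most tied to the prostate, and 3 of its 4 genes were detected in every RNA. Hoxb13, which is a marker of prostate epithelium in the adult, had intensities of 622 in wild type and 480 in its TAM-treated floxed partner, and of 539 in the vehicle-treated RNA and 430 in its TAM-treated partner. Both RNAs labelled as Sox9-expressing were above both TAM-treated floxed RNAs. Its log2 ratios were 0.37 and 0.33, with a mean of 0.35 ± 0.03 (SD, n = 2 arrays) and a moderated standard error of 0.07. The limma p was 0.0102 before adjustment and 0.181 after it, so the difference did not pass. Its probe lies at chr11:96057368-96057427 on the plus strand.

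Hoxd13 gave 850 in wild type, 786 in its floxed partner, 839 with vehicle and 812 with TAM. The log2 ratios were 0.11 and 0.05 and the adjusted p was 0.614, which did not separate the RNAs. Hoxa13, needed for the genital tubercle and the caudal urogenital tract, gave 130.1 in both RNAs of the genotype comparison, then 154 with vehicle and 130.3 with TAM. Its log2 ratios were 0.00019 and 0.24, with an adjusted p of 0.553. Only the vehicle-treated RNA stood above the other RNAs with this brightest probe of Hoxa13. Hoxc13, known for hair and nail, was not well above background in any RNA, at 85.4 to 91.7.

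For Hoxa13 and Hoxd13 a second probe was tested, and for these and Hoxb13 it is a probe in the coding part for the homeodomain that can be lined up across the 3 paralogues. These sequences are shown because paralogues that share sequence could share signal. They are given 5′ to 3′ as on the array, and capitals mark the bases that are identical in all 3 when the probes are aligned without gaps.
Hoxa13: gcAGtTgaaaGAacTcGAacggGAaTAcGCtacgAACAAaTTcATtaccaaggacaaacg
Hoxb13: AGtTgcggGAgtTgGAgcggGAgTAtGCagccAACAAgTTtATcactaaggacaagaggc
Hoxd13: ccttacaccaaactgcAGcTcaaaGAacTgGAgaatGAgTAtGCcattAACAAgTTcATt
The 3 probes shared a stretch of 44 bases, and 23 of those were identical in all of them. Pairwise identity was 69.0% over 58 bases between Hoxa13 and Hoxb13, 71.7% over 46 bases between Hoxa13 and Hoxd13, and 63.6% over 44 bases between Hoxb13 and Hoxd13. Whether RNA of one paralogue bound the probe of another was not tested. The coding probe of Hoxa13 gave log2 ratios of 0.06 and 0.17, where its brightest probe had given 0.00019 and 0.24. With the coding probe Hoxa13 was at 137 in wild type and 132 in its partner, then 141 with vehicle and 126 with TAM. The coding probe of Hoxd13 gave -0.04 and 0.10, where its brightest probe had given 0.11 and 0.05. For Hoxb13 the printed probe is the only one on the array, so its values are those given above.

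The genes of groups 9 to 11 set up the posterior trunk and the urogenital and limb territories, and they held the largest disagreement between the arrays. Hoxa11, which patterns the uterus and the distal mesenchyme of the urogenital tract, was at 321 in wild type and 502 in its TAM-treated partner, then 572 with vehicle and 489 with TAM. It was lowest in wild type and highest with vehicle, the 2 RNAs that were both labelled as Sox9-expressing. Its log2 ratio was -0.64 on the genotype comparison and 0.23 on the treatment comparison. Hoxa10, its neighbour, was at 657, 711, 827 and 649 in the same order, with ratios of -0.11 and 0.35. The sign thus turned for both genes between the arrays, and vehicle was the highest RNA for both.

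Most markers of mesenchyme moved in that same way across the RNAs. All 15 markers of mesenchyme and smooth muscle were tested, and 13 of them went opposite ways on the 2 arrays, against 32.4% of all tested genes. Of the rest, 1 was higher and 1 was lower on both arrays. Their summed normalised intensity was 45436 in wild type and 76341 in its floxed partner, then 113103 with vehicle and 72282 with TAM. Col3a1, a fibrillar collagen, had log2 ratios of -1.63 and 1.13, and Pdgfra, a receptor of fibroblasts, had -0.72 and 0.47. Twist1, which defines mesenchyme in the embryo, was near background at 102 to 103 in every RNA. The 5 skeletal muscle markers summed to 823, 1642, 4314 and 1264. The part of these cells in the Hox values was not tested, and in bulk RNA more cells of a type and more RNA per cell cannot be told apart. By contrast all 9 epithelial markers were detected in every RNA, and of the immune markers 4 of 5, among them Ptprc, Cd3e and Adgre1, were not well above background in any RNA. Of the endothelial markers Pecam1 and Tek were below that mark and Cdh5 and Kdr were detected, and of 3 nerve and glia markers 1 was detected throughout.

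**Figure D3:**
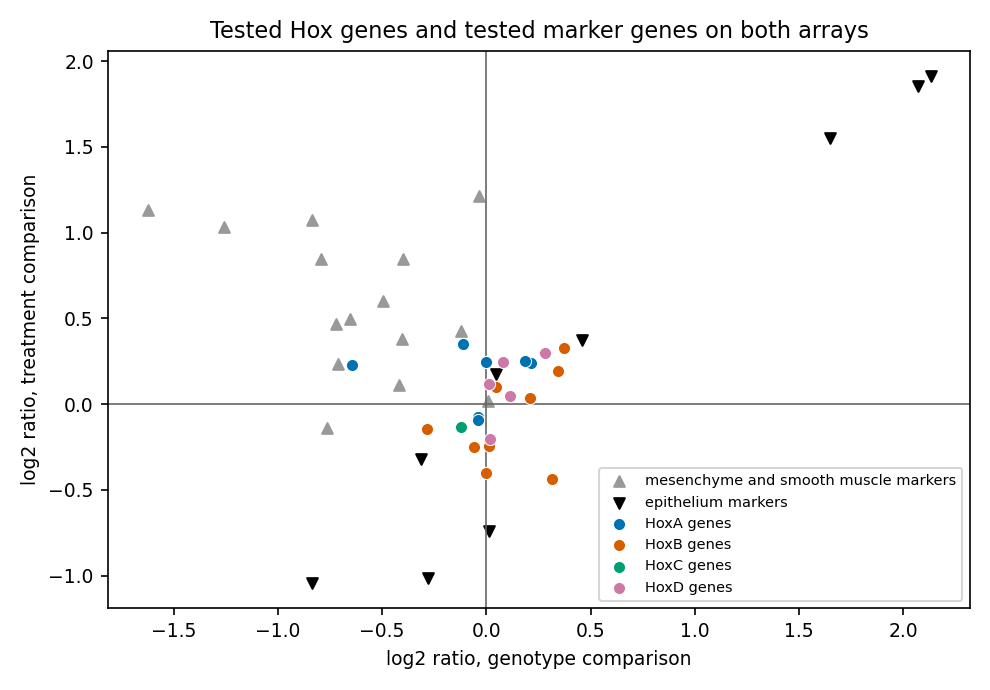
Each point is a tested gene (1 Hox gene left out), with its log2 ratio on the genotype comparison (x axis) against that on the treatment comparison (y axis). Hox genes are coloured by cluster, grey triangles are mesenchyme and smooth muscle markers and black triangles are epithelium markers. The Hox genes sit near the centre, with Hoxa11 at -0.64 and 0.23 on the side where most mesenchyme markers lie.

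The other members of these groups gave smaller values. Hoxa9 was at 582 in wild type against 512 in its partner, and at 508 with vehicle against 426 with TAM. Its log2 ratios were 0.18 and 0.25, with a mean of 0.22 ± 0.05 (SD, n = 2) and a limma p of 0.0454, or 0.278 after adjustment. Hoxd10, which acts in the hindlimb and spinal cord, was at 238 and 225, then 283 and 238, with ratios of 0.08 and 0.25. Hoxd9 had ratios of 0.02 and -0.20. Its second probe, also detected in every RNA, gave -0.12 and -0.33. Within groups 9 to 13, 7 of 9 tested genes were positive on each array taken alone (Hoxa13 barely so on the genotype comparison), against 47.8% of all tested genes on the genotype comparison and 52.3% on the treatment comparison. These were not the same 7 genes. Of the 9, 5 were positive on both arrays, 0 were negative on both and 4 went opposite ways. The shares over all tested genes were 33.8%, 33.7% and 32.4%. Groups 1 to 4 and groups 5 to 8 each had 4 of 7 genes positive on the genotype comparison and 3 of 7 on the treatment comparison. No test was made between these groups of genes.

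Hoxb9, a gene of the thoracic trunk, had 2 tested probes whose means differed in sign. The brightest probe was at 333 in wild type and 268 in its partner, then 268 with vehicle and 364 with TAM, with log2 ratios of 0.31 and -0.44. A second probe, also detected in every RNA, gave 232 and 175 and then 168 and 160, with ratios of 0.40 and 0.07. Both probes were thus higher in wild type than in its partner, and they parted on the treatment comparison. The second probe lies at chr11:96137065-96137124, and the brightest at chr11:96137748-96137807.

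Groups 5 to 8 hold the genes of the mid trunk, and the largest single value of any Hox probe was found there. Hoxb6 had 2 probes on the plus strand that were both detected in every RNA. The brightest, at chr11:96162563-96162622, was at 949 in wild type and 950.0 in its partner, then 681 with vehicle and 899 with TAM. Its log2 ratios were -0.00087 and -0.40, and the adjusted p was 0.468. The second, at chr11:96160281-96160340 and 2282 bases nearer to Hoxb7, was at 305 and 642, then 396 and 749. Both TAM-treated floxed RNAs were above both Sox9-expressing RNAs for this probe. Its log2 ratios were -1.07 and -0.92, with a mean of -0.996 ± 0.11 (SD, n = 2). The limma p was 0.000385 before adjustment and 0.0947 after it. The second probe therefore passed 2-fold on the genotype comparison, fell short of it on the treatment comparison, and did not pass the adjusted test. With an offset of 10 in place of 50 it was beyond 2-fold on both arrays, at -1.19 and -1.02, and with the processed signals of the scanner software it was at -1.45 and -1.09. It was named after its values were seen to differ from those of the brightest probe. The first 30 bases of each are shown because the pair carries the same gene name and gave different answers.
Hoxb6, brightest probe: tcgagtctcatttcgtccatgtcccccgtg
Hoxb6, second probe: ggtgctatttgacaattcctgcctctgcca
Which transcript the second probe reads was not settled, since no gene model of the mm9 build was used here.

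**Figure D4:**
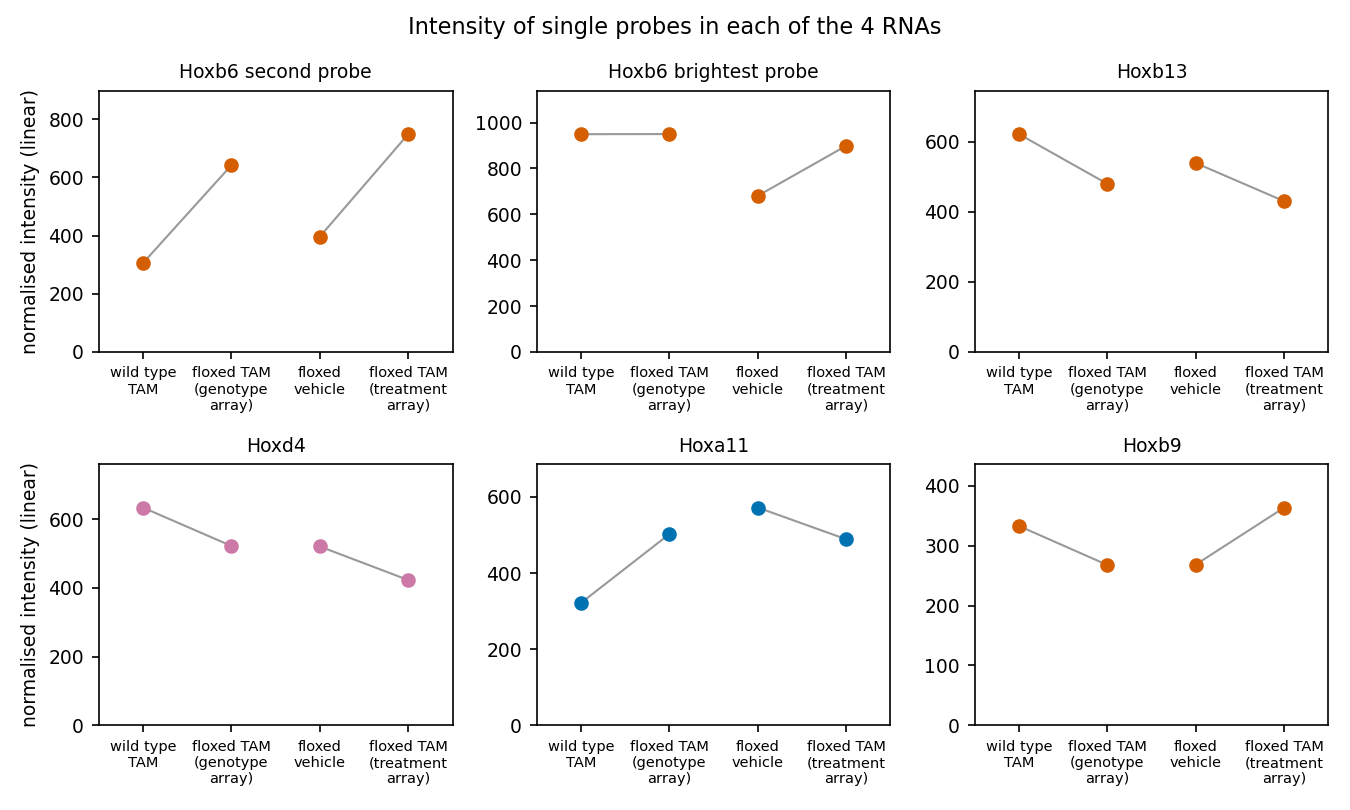
Normalised linear intensity (y axis, from 0) of 6 probes in the 4 RNAs (x axis), with lines joining the 2 RNAs hybridised to the same array. The second Hoxb6 probe rises from Sox9-expressing to TAM-treated floxed RNA on both arrays, Hoxb13 and Hoxd4 fall on both, and Hoxa11 and Hoxb9 turn between the arrays.

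The neighbours of Hoxb6 did not share the pattern of its second probe. Hoxb7 was at 1543 and 1527, then 1162 and 1376, with log2 ratios of 0.01 and -0.24. Hoxb5 had ratios of 0.21 and 0.04, and Hoxb8 of 0.05 and 0.10. On the treatment comparison Hoxb4, Hoxb6, Hoxb7 and Hoxb9 all lay below 0, from -0.24 to -0.44, while their values on the genotype comparison ranged from -0.06 to 0.31. In the other clusters Hoxa6 (-0.04 and -0.07), Hoxa7 (-0.04 and -0.09) and Hoxd8 (0.01 and 0.11) stayed close to 0.

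Groups 1 to 4 are the genes of the hindbrain and neck, and 3 of the 5 Hox genes with an unadjusted limma p under 0.05 belonged to them. That was 3 of their 7 tested genes, beside 2 of 9 in groups 9 to 13 and 19.5% of all tested genes. Hoxd4 was at 633 in wild type and 522 in its partner, then 520 with vehicle and 422 with TAM. Each Sox9-expressing RNA was above its partner on the same array, but the wild-type partner, at 522, was above the vehicle-treated RNA, at 520. Its log2 ratios were 0.28 and 0.30, with a mean of 0.29 ± 0.01 (SD, n = 2), a limma p of 0.0180 and an adjusted p of 0.206. Hoxb3 was at 207 and 163, then 190 and 166, so both Sox9-expressing RNAs were above both others. Its ratios were 0.34 and 0.19, with an adjusted p of 0.248. A second Hoxb3 probe, also detected in every RNA, gave smaller ratios of 0.11 and 0.05, with a limma adjusted p of 0.612. Hoxa3, a gene of the thymus and pharynx, was at 163 and 141, then 164 and 139, with ratios of 0.21 and 0.24 and an adjusted p of 0.259. These genes kept a positive mean in each of the processing alternatives.

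Other genes of groups 1 to 4 were lower on both arrays. Hoxb2 was at 191 and 233, then 213 and 235, with log2 ratios of -0.29 and -0.15 and an adjusted p of 0.301. Its second probe lies on the minus strand and was not detected, so it reads the other strand. Hoxb4 had ratios of -0.06 and -0.25, and Hoxc4 of -0.12 and -0.14. Hoxa4 was not well above background in any RNA with either of its probes, which averaged 0.02 and -0.06.

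The 5 genes detected in only some RNAs were all close to the limit of detection. With the more lenient mark, signal positive and significant, all 5 were detected in every RNA, so the pattern depends on the mark. Hoxa5, Hoxc6 and Hoxc9 were well above background in the vehicle-treated RNA and in no other, as were 1% of all genes on the array. On the treatment comparison Hoxa5 was at 118 against 94.3, or 1.25-fold higher with vehicle. Hoxc9 was at 119 against 96.4, or 1.23-fold higher, and Hoxc6 at 101 against 95.5, or 1.06-fold higher. These folds set the detected intensity against the undetected probe's own value, which was above the lowest detected signal of the array. They are therefore measured ratios and not lower bounds, and they moved with the processing. For Hoxa5 the log2 ratio was 0.17 without background subtraction and 1.25 with the scanner's processed signals. For Hoxc9 it was 0.18 and 1.37 in those runs, and for Hoxc6 it was -0.02 with median centring. The vehicle-treated RNA was also the one in which the summed intensities of the mesenchyme and of the skeletal muscle markers were highest, as given above. The part of such cells here was not tested. Hoxd11 was detected with vehicle and in the TAM-treated floxed RNA of the genotype comparison, at intensities from 96.8 to 102 over the 4 RNAs. Hoxd12 was detected only in the TAM-treated floxed RNA of the treatment comparison, at 103 against 92.6 with vehicle.

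Of the 12 Hox genes with 2 probes, both were tested for 6, and the means went opposite ways for Hoxb9 alone. Over all genes with such pairs, 29.6% of 3155 had means of opposite sign. Counting also pairs with an undetected probe, 3 of the 12 did so (Hoxa4, Hoxb2 and Hoxb9).

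Hox proteins bind DNA together with TALE homeodomain cofactors of the Pbx, Meis and Pknox families, and all 9 of these were detected in every RNA. Of them 3 were higher with Sox9 on both arrays, 2 were lower and 4 went opposite ways, with none at 2-fold and none past the adjusted p. Over all tested genes 33.8% were higher on both arrays, 33.7% lower and 32.4% opposite. At least 2-fold were 1.67% on the genotype comparison and 2.1% on the treatment comparison. The same shares stand beside the counts of the lists below. Meis3 was at 223 and 279, then 198 and 261, so that both Sox9-expressing RNAs were below both others, with log2 ratios of -0.32 and -0.40 and an adjusted p of 0.180. Pbx2 had ratios of 0.16 and 0.29, and Meis1 of 0.02 and 0.24. Meis2 was at 1880 and 2031, then 2826 and 2219, so that it was highest with vehicle, with ratios of -0.11 and 0.35. Pbx3 (-0.04 and 0.30), Pbx4 (-0.15 and 0.11) and Pknox2 (-0.18 and 0.15) turned between the arrays in the same way, and Pknox1 stayed near 0 (-0.07 and -0.06).

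Polycomb proteins keep Hox genes silent and Trithorax proteins keep them active. All 17 Polycomb genes on the list were tested, with 9 higher on both arrays, 3 lower, none at 2-fold and none past the adjusted p. The highest of them was Pcgf2, also known as Mel18, at 0.48 and 0.64, followed by Cbx8 at 0.39 and 0.56. Of the 9 Trithorax and H3K27 demethylase genes, 3 were higher, 3 lower and 3 opposite, and none passed. The ParaHox and Cdx genes, a related homeobox family that acts in the gut and posterior embryo, had 0 of 6 members detected in all RNAs. Among genes that flank the clusters, 10 of 12 on the array were tested, with 2 higher, 5 lower and 3 opposite. Evx2, next to Hoxd13, was detected in every RNA with ratios of 0.01 and 0.06, and Evx1, next to Hoxa13, was not detected.

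Of 13 genes of UGS patterning and prostate budding, 7 were tested. Among the genes not well above background in any RNA were Shh, Gli1, Foxa1, Foxa2 and Epha6. Bmp7 had log2 ratios of 0.29 and 0.25 with an adjusted p of 0.218. Aldh1a2, which makes the retinoic acid that induces Hox genes, was at 502 in wild type and 989 in its partner, then 1019 with vehicle and 881 with TAM, with ratios of -0.98 and 0.21. Its order over the 4 RNAs was that of Hoxa11. Some mesenchyme markers, among them Col3a1 and Pdgfra, had the same order. A part of Aldh1a2 in the Hox values was not tested.

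Of the 9 epithelial markers, 5 were higher on both arrays, 3 were lower and 1 went opposite ways. Among the higher ones were markers of the basal layer. Krt5 had log2 ratios of 2.13 and 1.91, Krt14 of 2.07 and 1.86, and Trp63, a transcription factor of basal cells, of 1.65 and 1.55. The limma adjusted p was 0.0653 for each of the 3. The lower ones were Cldn4, a tight junction protein, at -0.84 and -1.04 (adjusted p 0.0968), Krt18, a luminal keratin, at -0.28 and -1.01, and Cdh1, the adhesion protein E-cadherin, at -0.31 and -0.32. Hoxb13, Hoxd4, Hoxb3, Hoxa3 and Hoxa9, the Hox genes with an unadjusted limma p under 0.05, were positive on both arrays, with log2 ratios of at most 0.37. That they share the sign of the higher markers follows from being positive, and it shows no link to those markers. Whether the makeup of the epithelium played a part in those values was not tested.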

How the data were processed

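Total RNA of prostaspheres was amplified, labelled and hybridised to 2 two-colour Agilent whole mouse arrays. The authors deposited scanner output of Agilent Feature Extraction 10.5.1.1 with spot and background intensity, processed intensity, a log10 ratio and quality marks. The authors also deposited a value table with 1 log2 ratio per spot and array, whose processing is not given in the sources used here beyond limma in the submitters' notes. Its slope on the scanner's log10 ratio was 3.12 and 3.14, near that of a log2 scale, its direction was Cy5 over Cy3, and its medians were -0.0099 and -0.0034, with its centring otherwise unknown.

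Here the mean intensity was corrected by normexp (offset 50) on the local background, 1639 control spots were left out, each array was loess-normalised in limma 3.58.1 (R 4.3.3) and spots of a probe were averaged. Outlier spots, 126 and 130 per array, got no weight, and no spot was saturated. Intensities per RNA came from a further Aquantile step. A probe was tested if well above background on both arrays in at least 1 and the same dye (22731 of 41174 probes), with the limma mean of both arrays against 0, two-sided and adjusted over all tested probes. Shares over all genes used the brightest probe of each gene. Genes given values by rule were those of group 13, those detected in some RNAs only and those with an unadjusted p under 0.05. The rule also took those at least 2-fold and those whose probes disagreed. The rest were named so that each member is accounted for. Values were also given for genes that met no rule, among them Hoxa10, Hoxa11, Hoxb7 and Hoxd10. The steps were tested on simulated data. The number of arrays, 2 in all, limits the precision. The members and lists were chosen with earlier results of these data known. Some genes were on the array under older names, such as Utx for Kdm6a. Figures were drawn with matplotlib. Some genes of the lists are not reported here.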

Additional observations from a re-analysis of the deposited data

Results flagged for a closer look

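In 6 of the 23 tested Hox genes the 2 arrays moved opposite ways, against 32.4% of all tested genes. The value given is the log2 ratio of the treatment comparison minus that of the genotype comparison, and with 1 array each the difference was not tested. It is given for 5 of the 6. It was 0.87 for Hoxa11 and 0.46 for Hoxa10, which were relatively higher in the treatment comparison. It was -0.75 for Hoxb9, -0.26 for Hoxb7 and -0.22 for Hoxd9, which were relatively higher in the genotype comparison. For Hoxb7 and Hoxd9 the genotype value lay within 0.02 of 0, so that the sign there carries little. The second Hoxb9 probe did not turn, at 0.40 and 0.07. Nor did the second Hoxd9 probe, which was lower on both arrays, at -0.12 and -0.33.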

How the results depend on the processing

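In each alternative run, 0 Hox genes were at least 2-fold on both arrays and 0 passed the limma adjusted p. The methods' t-test gave 4 of 23 Hox genes at its threshold, where it gave 1934 of 22731 probes, and 0 of either after Benjamini-Hochberg adjustment. Median centring in place of loess moved the median of all tested probes on the treatment comparison from 0.01 to 0.38, and that of the Hox genes to 0.37. Under it 3 Hox genes were lower on both arrays, 2 had an unadjusted p under 0.05, and the median mean log2 ratio was 0.20, where it was 0.06 with loess and 0.11 with plain background subtraction. The processed signals of the scanner software left 2 genes with an unadjusted p under 0.05. Without the filter on dim probes 38 genes were tested, 12 were lower on both arrays and the median was 0.022. Leaving out an array gave medians from 0.019 to 0.046, and counts on both arrays could not be given from 1 array.

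Median centring turned the mean of Hoxa11 to 0.055, of Hoxb6 to 0.083, of Hoxb7 to 0.19 and of Hoxb9 to 0.17. The Hoxb9 mean was also positive with arrays scaled to 1 spread (0.053), with the authors' processed values (0.052) and with the mean over its probes (0.088). With either array alone the value ran from -0.11 to 0.35 for Hoxa10, from -0.64 to 0.23 for Hoxa11, from -0.24 to 0.015 for Hoxb7 and from -0.44 to 0.31 for Hoxb9, since these genes differ between the arrays. The cause of the other turns was not tested. The second Hoxb6 probe stayed between -1.27 and -0.73, with adjusted p from 0.0700 to 0.292, and Hoxb13 between 0.35 and 0.61, with adjusted p from 0.147 to 0.349. No paired analysis was possible because each comparison has 1 array and the labels give no replicate numbers. Probes not well above background, as most of HoxC, were not tested in the main run.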

Other observations

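Between the outermost Hox probes of the 4 clusters the array also held 9 probes under other names, most of them for transcripts of unknown function. One of these, 9530018H14Rik in HoxA (mm9 chr6:52206290-52206349, minus strand), was tested, with log2 ratios of 0.01 and 0.07. It was detected in 3 of the 4 RNAs, at intensities from 98.5 to 103. A probe of 1700109F18Rik in HoxD was detected in 1 RNA, and the other 7 probes were not well above background in any RNA.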
